A study of Mus musculus with 8 samples.

Results

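The 8 genes described here encode enzymes that act on adenosine methylation in RNA outside the METTL3 complex, and a cofactor. Fto and Alkbh5 encode demethylases, Mettl16, Pcif1, Mettl5, Zcchc4 and Mettl4 encode methyltransferases, and Trmt112 encodes a cofactor of Mettl5. They were taken by name from a table of 17597 genes and 1097 transposable element subfamilies, and all 8 were found in it. The selection was by name alone, made with earlier results of these data known.

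RNA was sequenced from mouse embryonic stem (ES) cells of a Cast x 129S cross, grown on mitomycin-inactivated mouse fibroblast feeders. In every library METTL3 carried the FKBP12 F36V degron, a tag through which the small molecule dTAG-13 directs the protein to destruction. The endogenous Xist promoter had been replaced by a TetOn promoter. The labels place it on the 129S allele, whereas the study describes clones C3 and H5 as lines with it on the Cast allele. Doxycycline, which switches TetOn promoters on, was given to neither group. Of 8 libraries, 4 came from cells given dTAG-13 for 26 hours and 4 from cells without it, and in both groups 2 libraries were from clone C3 and 2 from clone H5. These are separate lines tagged at the C-terminus of METTL3, not separate animals. The labels name the molecule as total RNA, as do the study's methods, while their extraction text describes RNA from chromatin.

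Each gene is given here by its mean count, the authors' mean over all libraries after scaling each library's read counts by its size factor. This is 1 value per gene with both groups together. Levels with and without dTAG-13 were therefore not compared, the spread between libraries was not analysed, and no test was made. In bulk RNA, a lower level from fewer cells of a kind and one from less RNA per cell cannot be told apart. All mean counts added up to 16292717, of which transposable elements held 10.6%. The mean counts of 8 ES cell markers ran from 1415 to 11934. Those of 8 fibroblast markers summed to 168, of which Thy1, named here after its value was seen, held 116, and those of 5 endoderm markers ran from 1.32 to 24.2. The part of feeder RNA in the levels was not tested. Mettl3, the gene whose protein the degron targets, had a mean count of 684. The degron acts on the protein, which these counts do not measure.

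N6-methyladenosine (m6A) is the most common internal modification of mRNA, and most of it is written by the METTL3 complex. It can be removed by dioxygenases of the AlkB family, which use iron and 2-oxoglutarate to oxidise the methyl group. A separate set of methyltransferases modifies particular adenosines in snRNA, in rRNA or next to the mRNA cap, and these enzymes do not need METTL3. All of them draw the methyl group from S-adenosylmethionine (SAM).

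The methyltransferases share a short catalytic element, which played no role in their selection. It is a tetrapeptide of aspartate or asparagine, a pair of prolines and an aromatic residue, which binds the adenine to be methylated. Translation of 1 coding transcript per gene (GENCODE vM21, GRCm38) found it once in each of the 5 methyltransferases and once in Mettl3, and in none of Fto, Alkbh5 and Trmt112. The codons are shown because they divide the enzymes among the 8 genes into forms, with the 12 bases of the tetrapeptide in capitals and 9 bases on either side in lower case.

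Mettl16: tgtatgtgcAACCCTCCCTTTtttgccaac
Pcif1: tttgaggccAACCCTCCGTTCtgcgaggag
Mettl5: gtaattatgAATCCTCCCTTTgggaccaaa
Zcchc4: atggtgacaGACCCTCCCTTTggcggcttg
Mettl4: attgtgattGATCCACCATGGgagaacaaa
Mettl3: gtgatggctGACCCACCTTGGgatattcac

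Mettl16, Pcif1 and Mettl5 encode NPPF, at residues 184 to 187 of 553, 552 to 555 of 706 and 126 to 129 of 209. Zcchc4 encodes DPPF at residues 274 to 277 of 512. Mettl4 encodes DPPW at residues 286 to 289 of 471, the same 4 residues as Mettl3 (395 to 398 of 580). The stretches lie at chr11:74792274-74792303 on the plus strand (Mettl16, exon 5 of 10), chr2:164890449-164890478 on the plus strand (Pcif1, exon 15 of 17), chr2:69880777-69880806 on the minus strand (Mettl5, exon 3 of 7), chr5:52807014-52807043 on the plus strand (Zcchc4, exon 7 of 12), chr17:94739474-94739503 on the minus strand (Mettl4, exon 5 of 9) and chr14:52297572-52297601 on the minus strand (Mettl3, exon 6 of 11). All of them lie within coding exons.

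All 8 genes were detected well above the lowest levels of the table, with mean counts from 257 (Zcchc4) to 2704 (Mettl16), a 10.5-fold span. Together they held 0.0414% of the summed mean counts (414 ppm). To compare genes with each other, mean counts were divided by the number of bases covered by any annotated exon of the gene. On this scale the level ran from 23.6 mean counts per kb for Zcchc4 to 452 for Trmt112, a 19.2-fold span. The median of the 8 genes was 94.6, against 81.2 over the 13462 genes whose mean count reached 10. Of the 8, Trmt112, Alkbh5, Mettl16 and Mettl5 lay above that median, and Mettl4, Fto, Pcif1 and Zcchc4 below it. Among the 8, Trmt112 alone lay outside the interquartile range of those genes, which ran from 21.3 to 251 per kb.

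**Figure D1:**
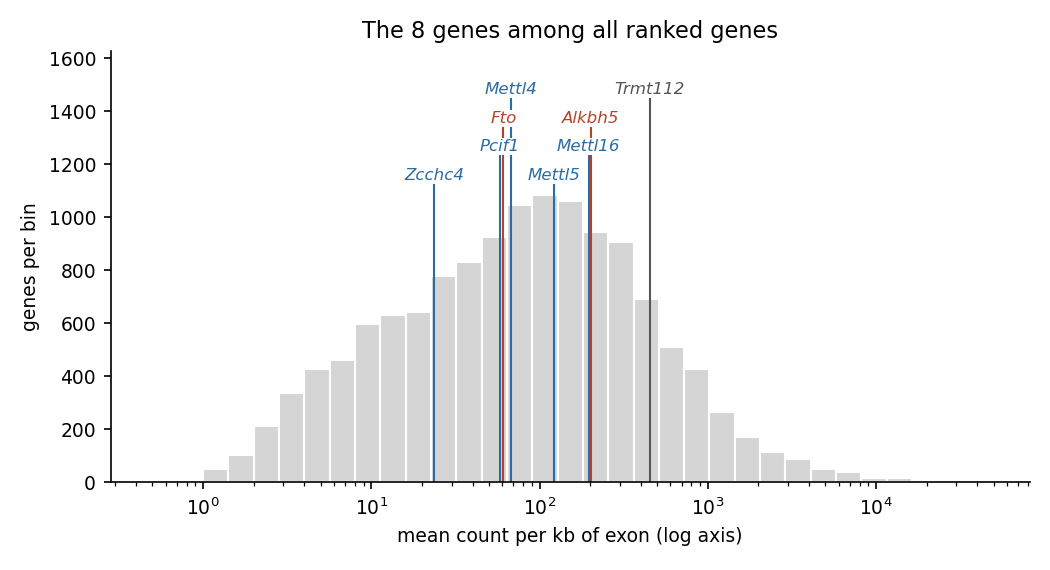
Number of genes in bins of the mean count per kb of exon (log axis, 13462 genes whose mean count reached 10), with a line for each of the 8 genes (red, demethylases; blue, methyltransferases; grey, the cofactor). Trmt112 stands highest at 452 and Zcchc4 lowest at 23.6, and the other genes lie between 58.1 and 202.

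Fto, the demethylase of m6A and of the methylated adenosine next to the mRNA cap, had a mean count of 793 and 60.9 mean counts per kb, at the 43.7th percentile of genes. It lies at chr8:91313525-91668439 on the plus strand, the longest of the 8 genes at 355 kb, of which 3.67% is exonic in any transcript. Alkbh5, an m6A demethylase of the nucleus, had a mean count of 1210 and 202 mean counts per kb, at the 70.7th percentile. It lies at chr11:60536381-60558512 on the plus strand and has 4 exons. Per kb of exon, Alkbh5 was 3.32 times as high as Fto. That ratio depends on the length used, because the exons annotated for Fto cover 13031 bases while its longest transcript has 4707. It was 1.25 per kb of the longest transcript and 0.974 per kb of the median coding transcript, so the order of the demethylases could not be set from these values.

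Against Mettl3, at 135 mean counts per kb of exon, Alkbh5 was 1.50 times as high and Fto 0.451 times. With the longest transcript as the length, both lay below Mettl3, at 0.666 and 0.532 times its level. With the median coding transcript they were at 0.200 and 0.205 times.

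Mettl16, which methylates the spliceosomal U6 snRNA and hairpins in the 3′ untranslated region of Mat2a, had the highest mean count of the 8 genes, 2704. Its level was 196 per kb of exon, at the 70.1st percentile. It lies at chr11:74770830-74828525 on the plus strand. Its main coding transcript has 12584 bases, longer than 99.1% of the coding transcripts compared, and 10767 of these bases follow the stop codon. Where Mettl16 stands depends on the transcript used. With the median of its 3 coding transcripts, 2073 bases, its level was 1304 per kb and it ranked first of the 8, while with the longest transcript it was 215 and ranked second.

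Pcif1 writes the methyl group on the adenosine next to the cap. It had a mean count of 380 and 58.1 mean counts per kb, at the 42.7th percentile, and lies at chr2:164879304-164894454 on the plus strand. Its level per kb varied little with the length, from 58.1 to 65.8. Only 1 of its 4 transcripts is coding, and this one is also the longest, with 5772 bases against 6544 covered by any exon. Mettl4, a methyltransferase of the spliceosomal U2 snRNA, had a mean count of 545 and 67.8 mean counts per kb, at the 46.0th percentile. It lies at chr17:94722590-94750019 on the minus strand. Between Mettl4, Fto and Pcif1 the steps per kb of exon were only 1.11-fold and 1.05-fold. The first of these steps turned with both other lengths, where Mettl4 was at 0.487 and 0.546 times Fto. The second widened, with Fto at 2.56 times Pcif1 per kb of the longest transcript and 3.29 times per kb of the median coding transcript.

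Mettl5 and Zcchc4 each place a methyl group on rRNA, Mettl5 on the small and Zcchc4 on the large subunit. Mettl5 had a mean count of 296 and 121 mean counts per kb, at the 59.4th percentile. Zcchc4 had a mean count of 257 and 23.6 mean counts per kb, at the 26.5th percentile. They lie at chr2:69871198-69885615 on the minus strand and chr5:52775409-52824665 on the plus strand. The ratio of Mettl5 to Zcchc4 was 5.15 per kb of exon, 3.16 with the longest transcript and 2.95 with the median coding transcript. Mettl5 was thus the higher of this pair with each length, although their mean counts were close.

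Trmt112 stabilises Mettl5 and several other methyltransferases of tRNA, rRNA and protein. It is the smallest of the 8 genes, with 1.35 kb at chr19:6909698-6911049 on the plus strand and 125 residues. Its mean count of 557 gave 452 mean counts per kb, at the 85.7th percentile. Per kb of exon, Trmt112 was 3.73 times as high as Mettl5, and 1.91 times with the median coding transcript. With the longest transcript their levels were 566 and 141 per kb. Of its 7 partners (Mettl5 included), Bud23, the rRNA methyltransferase listed in the table as Wbscr22, had the highest level at 548 per kb, followed by Thumpd3 at 284, Thumpd2 at 204, Trmt11 at 154, Mettl5 at 121, Alkbh8 at 61.6 and N6amt1 at 38.7. The partners added up to 1411 per kb, so Trmt112 reached 0.320 times their sum. It was at 0.218 times with the longest transcript and 0.1000 times with the median coding transcript.

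**Figure D2:**
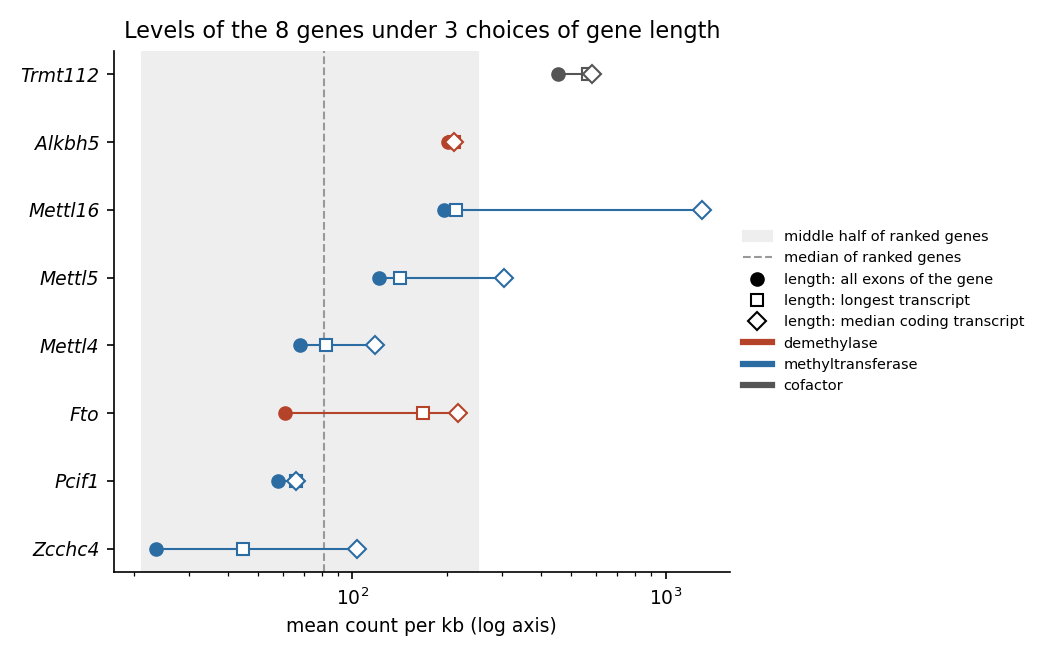
Mean count per kb (log axis) of each of the 8 genes, with the length taken as all exons (filled circles), the longest transcript (open squares) or the median coding transcript (open diamonds), coloured by role, and lines joining the 3. The grey band and dashed line are the interquartile range and the median of 13462 genes per kb of exon, and Mettl16 moves most, from 196 to 1304.

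Read across the 3 lengths, Trmt112 was first or second, and Zcchc4 and Pcif1 held the last places. Trmt112 lay above Alkbh5 with each length, by 2.24-fold to 2.76-fold, and Mettl5 above Mettl4 by 1.72-fold to 2.58-fold. Mettl16 also lay above Mettl5 with each length, by 1.52-fold to 4.27-fold, and Fto above Pcif1 by 1.05-fold to 3.29-fold. For Mettl16 and Mettl5, Fto and Pcif1, and the remaining neighbours in the order, the ranges over the 3 lengths overlapped. Those of Trmt112 and Alkbh5 did not, nor did those of Mettl5 and Mettl4. The order of Alkbh5 and Mettl16, of Mettl4 and Fto, and of Pcif1 and Zcchc4 turned with the length. Alkbh5 and Mettl16 differed by 1.03-fold per kb of exon. Since all genes move with the length, percentiles were also taken among genes measured the same way. Fto rose from the 43.7th percentile to the 59.7th with the longest and the 54.7th with the median coding transcript, which put 5 of the 8 genes above the median gene. Mettl16 was at the 65.5th and 88.4th percentiles, and Trmt112 at the 84.5th and 75.7th.

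Reads of 4 of the 8 genes could meet exons on the opposite strand. For Trmt112, 39.1% of exonic bases (482) overlap exons of Esrra or Prdx5, which had mean counts of 180 and 417. Exons of Zfp335 (mean count 440) cover 16.9% of Pcif1, those of Ssb (5391) cover 6.93% of Mettl5, and those of 4831440D22Rik and Gm45427, whose levels were not analysed here, cover 3.44% of Fto. Mettl5 also shares 50 exonic bases with Gm13625 on its own strand. Alkbh5, Mettl16, Zcchc4 and Mettl4 share no exonic base with another gene on the opposite strand. The part of these overlaps in the levels was not tested.

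The gene models place most of the transcript behind the coding region in 6 of the 8 genes. In Alkbh5, Mettl16, Pcif1, Zcchc4, Mettl4 and Fto the last exon holds from 60.5% (Fto) to 90.3% (Mettl16) of the transcript, and the 3′ untranslated region has 2004 to 10767 bases, against a median of 1001 over 13035 coding genes. Mettl5 and Trmt112 stand apart with 3′ untranslated regions of 80 and 169 bases. Mettl5 is also rich in exons for its length, at 7.23 exons per kb of transcript (93.5th percentile), whereas Alkbh5 has 0.698 (5.43rd percentile) and Mettl16 has 0.795 (6.85th percentile).

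GGACT, the most usual form of the sequence that the METTL3 complex methylates, was counted on the sense strand of the same transcripts as a description of sequence, since m6A itself was not measured in these libraries. It occurs in 7 of the 8 genes and in 92.2% of the 13035 coding transcripts. Of 51 matches, 37 lie in 3′ untranslated regions, 11 in coding sequence and 3 in 5′ untranslated regions. These counts were not set against the length of each region, and the 3′ untranslated region is the longest part of most of these transcripts. Mettl16 has 14 matches, Alkbh5 and Pcif1 have 10 each, Zcchc4 has 8, Mettl4 has 5, Fto has 3 and Trmt112 has 1, while Mettl5 has 0. Several of the Mettl16 matches lie close together, between bases 7485 and 7578 of its transcript. Per kb the median of the 8 was 1.06, close to the 1.05 of all coding transcripts, with Alkbh5 (1.75) and Pcif1 (1.73) highest.

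**Figure D3:**
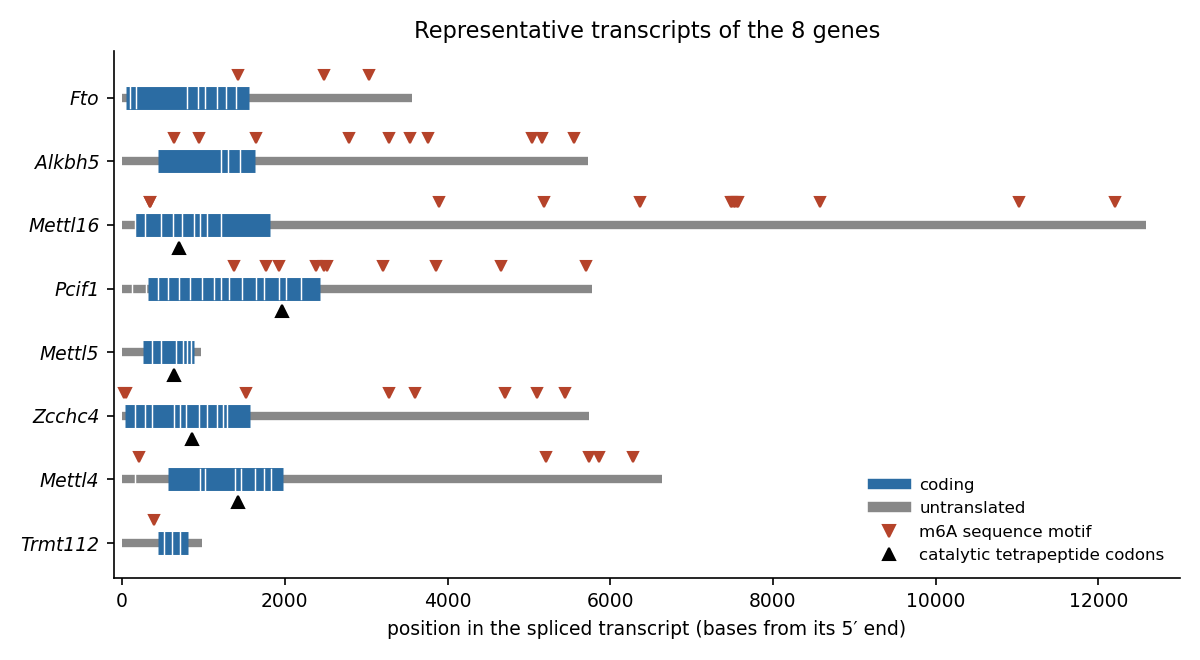
One coding transcript of each of the 8 genes drawn to scale, in bases from its 5′ end, with thick bars for coding sequence, thin bars for untranslated regions and white lines at exon junctions. Red triangles mark GGACT and black triangles the codons of the catalytic tetrapeptide, and Mettl16 shows its 3′ untranslated region of 10767 bases.

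Mat2a, which encodes the SAM synthetase subunit that Mettl16 controls through its 3′ untranslated region, had a mean count of 7453 and 1661 mean counts per kb, at the 96.9th percentile. It was 8.49 times as high as Mettl16 per kb of exon, 10.2 times with the longest transcript and 4.08 times with the median coding transcript. The nonamer TACAGAGAA of the Mettl16 hairpins was searched on the sense strand. Only this exact spelling was counted, so hairpins with another spelling would be missed. It occurs 5 times in Mat2a (chr6:72432799-72439558, minus strand), every time behind the stop codon. Of 13035 coding transcripts, 570 (4.37%) hold it at least once and 27 hold it more than once, and no other gene had as many matches as Mat2a. The 5 stretches are shown as the known substrate of a member, each of 29 bases with the nonamer in capitals.

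Site 1: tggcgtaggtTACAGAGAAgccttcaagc
Site 2: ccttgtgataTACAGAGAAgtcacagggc
Site 3: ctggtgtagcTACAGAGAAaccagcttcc
Site 4: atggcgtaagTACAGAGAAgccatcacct
Site 5: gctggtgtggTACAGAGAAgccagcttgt

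The nonamers begin 40, 824, 1003, 1118 and 1337 bases after the stop codon. The stretches lie at chr6:72434235-72434263, chr6:72433451-72433479, chr6:72433272-72433300, chr6:72433157-72433185 and chr6:72432938-72432966. Among the 8 genes the nonamer occurs only in Mettl5, once, in the 5′ untranslated region. A match describes the letters and is not a methylated site.

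Other genes of the pathway place the 8 in context. The 8 subunits of the METTL3 complex had a median of 186 mean counts per kb of exon, from 78.8 for Cbll1 to 772 for Wtap, and 7 of them lay above the median of all genes, against 4 of the 8 genes described here. With the longest transcript as the length, 6 of the subunits and 5 of the 8 genes lay above the median gene. The 5 YTH-domain readers, which bind m6A, all lay above it, with a median of 480 and Ythdf2 highest at 911. Of the 8 genes, Trmt112 alone exceeded Ythdc1 (259.6 per kb of exon), the nuclear reader. Per kb of the longest transcript, Trmt112 and Ythdc1 were nearly equal, at 566 and 561. The 7 other AlkB dioxygenases had a median of 206, with Alkbh2 at 294, Alkbh1 at 256, Alkbh7 at 237 and Alkbh4 at 206 above Alkbh5 (202). Alkbh3, at 103 per kb of exon, lay below Alkbh5. Per kb of the longest transcript it lay above, at 233 against 211. Alkbh8 at 61.6 and Alkbh6 at 63.1 were close to Fto per kb of exon, while per kb of the longest transcript Fto was at 168.5, Alkbh6 at 167 and Alkbh8 at 70.1. A chosen list of 6 other RNA methyltransferases named METTL had a median of 97.2, much as the 8 genes, and ran from 32.9 for Mettl15 to 334 for Mettl2. Of the enzymes that make and recycle SAM, Ahcy stood at 2210 per kb and Mat2b at 331, while Mtr was at 101. With the longest transcript as the length, the medians were 155 for the 8 genes, 251 for the METTL3 complex and 561 for the readers, against 109 over all ranked genes. No test accompanies these differences.

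**Figure D4:**
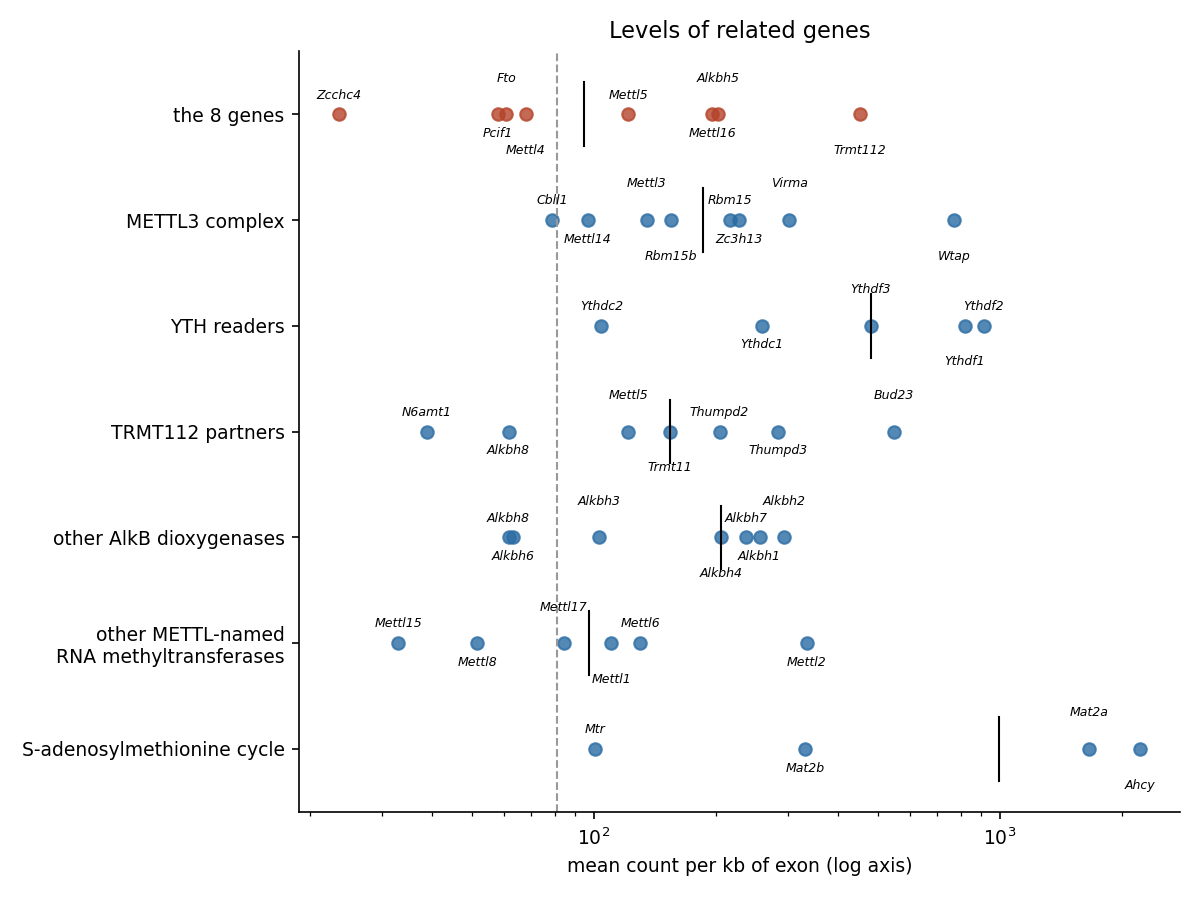
Mean count per kb of exon (log axis) of the 8 genes (red) and of 6 lists of related genes (blue), 1 point per gene, with a black bar at the median of each list and a dashed line at the median of 13462 genes. The 8 genes have a median of 94.6, the METTL3 complex 186 and the YTH readers 480, and Mettl5 and Alkbh8 appear in 2 rows each.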

How the data were processed

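Total RNA libraries were made by the authors with a stranded kit and rRNA depletion and sequenced in pairs. As stated in the methods, the authors removed rRNA reads with bowtie2, aligned to a variant-masked mm10 genome with STAR, kept unique alignments, removed duplicates with Picard and counted genes and transposable elements by TEtranscripts with default settings. Whether the counting used strand is uncertain. The signal column deposited by the authors is the mean over all libraries of counts divided by size factors. The table's other 5 columns hold the authors' own comparison of the groups (log2 fold change, its error, the statistic and p-values) and were not used. Depth per library is unknown, so no interval is given.

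Symbols were matched to GENCODE vM21 (GRCm38, the build of mm10): 16660 directly and 713 through older symbols, 98.7% of 17597. Gene length was the union of exons. Genes were ranked where the mean count reached 10. The transcript shown per gene was the APPRIS principal coding one with the longest coding sequence. Scripts ran in Python 3.11.15 with pandas 2.3.3, and length and mapping functions were tested on made-up intervals with known answers. Members, lists and alternatives were chosen with earlier results of these data known. The rule allowed up to 8 genes of each list other than the markers to be named, with none picked by value; Thy1 and the genes overlapping a member were added later.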

Additional observations from a re-analysis of the deposited data

How the results depend on the processing

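The levels per kb moved with the length given to a gene, and the percentiles with both the length and the count filter. The median of the 8 genes was 155 mean counts per kb with the longest transcript and 214 with the median coding transcript. Of the 8 genes, 3 kept their place in the order with the longest transcript, 0 with the median coding transcript and 3 with no correction for length. Above the median gene lay 7 with no filter on low counts, 3 where the mean count had to reach 100, and 5 with either transcript length for all genes, an alternative chosen after seeing the data. Against reads of genes alone the 8 held 463 ppm. Ranking among protein-coding genes left 4 above the median. No paired analysis was possible because the table gives 1 mean over all libraries. For the same reason leaving out replicates, DESeq2 size factors and a count test were not run. Which transcripts the cells use was not measured, and a level per kb rests on the annotation.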
